A study of Mus musculus with 9 samples.

Results

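The genes described here are the nuclear-encoded subunits of the mitochondrial electron transport chain and of the ATP synthase, measured by RNA sequencing in the cerebellum of mice carrying a human ataxin-3 transgene. They were taken by symbol from the protein-coding genes of the count table: the Ndufa, Ndufb, Ndufc, Ndufs and Ndufv genes followed by a digit, Sdha, Sdhb, Sdhc, Sdhd, Cyc1, and the genes whose symbols begin with Uqcr, Cox4i, Cox5, Cox6, Cox7, Cox8 or Atp5. The rule took 84 of the 37816 genes in the table, of which 35 belonged to complex I, 4 to complex II, 9 to complex III, 19 to complex IV and 17 to complex V, and a further 12 pseudogene or noncoding rows with such symbols were left out. The rule reads symbols and gene types and no measured value, but it was set with earlier results of these data known.

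The study compared 3 groups of 3 mice on a C57BL/6 background, all of which carried human ATXN3 on a yeast artificial chromosome and so expressed a human ataxin-3 beside the mouse one. The 15Q group carried an allele with 15 CAG repeats, a length that does not cause disease, and the 84Q group an expanded allele with 84 repeats, which models spinocerebellar ataxia type 3. The 84Q+IGF-1 group carried the same 84-repeat allele and received insulin-like growth factor 1 by intraperitoneal injection at 50 mg/kg once a week from 9 to 18 months of age, and all mice were taken at 18 months. The sample labels call the 15Q and 84Q mice untreated, whereas the treatment protocol gives them vehicle injections. No group analysed here lacked the transgene, so a difference between 84Q and 15Q is not one between a transgenic and a wild-type cerebellum. The 15Q mice were a donation from another laboratory, whereas the 84Q mice came from a mouse repository, so the repeat length cannot be told apart from the line and source of the mice in either comparison with 15Q.

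The electron transport chain sits in the inner mitochondrial membrane. Complex I takes electrons from NADH and complex II takes them from succinate, and both pass them to ubiquinone. Complex III moves them on to cytochrome c, and complex IV hands them to oxygen. Complexes I, III and IV pump protons as they do so, and complex V, the ATP synthase, lets the protons flow back to make ATP. Most subunits are encoded in the nucleus, while a small set of core subunits of complexes I, III, IV and V is encoded in mitochondrial DNA and was not analysed here. Among cerebellar neurons, Purkinje cells fire at high rates and rely on oxidative phosphorylation for their ATP.

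The 9 libraries held between 17482654 counts, in 84Q replicate 3, and 58269196 counts, in 15Q replicate 3, and 15Q replicates 2 and 3 were the deepest 2. The subunit genes took between 0.587% and 0.717% of the counts of a library. Levels are given as CPM, the counts relative to a common total of mapped reads, after scaling of the library totals by the trimmed mean of M-values, or as TPM, which also divides by transcript length, where genes are compared with each other. The mouse Atxn3 gene lay between 25.1 and 30.2 CPM in the 9 libraries, and the human transgene was not analysed here. Granule cell markers summed to between 3752 and 4448 CPM and Purkinje cell markers to between 7270 and 7968 CPM, and their groups overlapped. The labels name separate samples in each group, and p-values measure only the spread between these samples.

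Some libraries also held markers of other tissues, and the libraries differed in Xist. Markers of the choroid plexus summed to 1160 and 1128 CPM in replicates 1 and 3 of 15Q and to 2064 CPM in replicate 2 of 84Q, and to between 119 and 210 CPM in the other 6 libraries, so the 84Q+IGF-1 group held no library with a high level. Skeletal muscle markers summed to between 15.1 and 23.5 CPM in 15Q and to between 3.34 and 5.04 CPM in the other 6 libraries. At an adjusted p under 0.1 by edgeR, 7 of the 8 tested were lower in each group with the 84-repeat allele. Of all 19353 genes tested, 629 were lower at this threshold in 84Q and 509 in 84Q+IGF-1. Intestinal markers summed to between 23.1 and 36.7 CPM in 15Q and to between 4.17 and 6.07 CPM elsewhere, with 5 of 5 tested lower, and Fabp1, Fabp2 and Cdh17 were at 0 in all 84Q libraries. Xist, which is expressed in females, lay between 719 and 950 CPM in 4 libraries (replicates 2 and 3 of 15Q, replicate 1 of 84Q, replicate 2 of 84Q+IGF-1), and at no more than 1.15 CPM in the others.

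Many subunit genes share letters in their promoters that are read by nuclear respiratory factor 1 (NRF1), the ETS family, YY1 or the estrogen-related receptors, factors known to drive mitochondrial genes. RefSeq promoter windows, which run from 250 bases before to 50 bases after a gene's start in GRCm38.p6, were at hand for 66 of the 84 members. The letters GCGCATGC, the core of the NRF1 motif, were present on either strand in 10 members (15.2%) and in 824 of 27025 genes with a window (3.05%). The ETS letters CCGGAAGT were present in 5 members (7.58%, against 4.31% of all genes), the YY1 letters AAGATGGC in 9 (13.6%, against 3.19%) and the receptor letters TCAAGGTCA in 2 (3.03%, against 0.466%). At least 1 of the 4 motifs, none of which is contained in another, was present in 25 members (37.9%) and in 10.4% of all genes. A match describes the letters of the window and is not a bound site.

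The promoter stretches of Cox6a1 and Ndufa11 are shown because these genes rose in 84Q against 15Q, as described with their complexes, and hold the NRF1 letters upstream of their annotated start. Both are written in lower case on the strand of the gene and end before the first base that either RefSeq or GENCODE places in the gene, with the NRF1 letters and their reverse complement, which overlap to a palindrome, in capitals. The match began 139 bases before the end of the stretch for Cox6a1 (GRCm38.p6, chr5:115348982-115349208, minus strand) and 60 bases before the end of that for Ndufa11 (chr17:56717512-56717761, plus strand).
Cox6a1: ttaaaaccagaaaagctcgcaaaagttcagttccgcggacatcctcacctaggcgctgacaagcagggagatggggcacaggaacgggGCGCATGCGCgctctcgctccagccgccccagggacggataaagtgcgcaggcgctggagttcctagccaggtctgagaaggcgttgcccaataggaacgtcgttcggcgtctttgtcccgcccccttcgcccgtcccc
Ndufa11: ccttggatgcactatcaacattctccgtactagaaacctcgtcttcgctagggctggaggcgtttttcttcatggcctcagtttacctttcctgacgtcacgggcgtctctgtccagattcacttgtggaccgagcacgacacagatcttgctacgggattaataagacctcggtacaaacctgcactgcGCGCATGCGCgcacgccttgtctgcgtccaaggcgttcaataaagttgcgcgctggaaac

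Measured per length of transcript, the subunits of a complex did not share one level. The median over the members, each as its mean TPM over the 9 libraries, was 101 TPM for complex I, 120 TPM for complex II, 162 TPM for complex III, 157 TPM for complex IV and 71.4 TPM for complex V. The highest level of all was that of Atp5a1, the alpha subunit of the ATP synthase head, at 1117 TPM, and Atp5b, the catalytic beta subunit beside it, followed at 954 TPM. In complex IV the highest was Cox8a at 692 TPM, in complex II the flavoprotein Sdha at 531 TPM and in complex III the hinge protein Uqcrh at 231 TPM. The lowest were Ndufc1 in complex I at 16.1 TPM, the membrane anchor Sdhc in complex II at 52.8 TPM, Uqcrq in complex III at 81.7 TPM, Cox8b in complex IV at 1.57 TPM and Atp5s, a relative of the ATP synthase subunits, at 14.4 TPM.

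Ranked by TPM within a complex, most neighbours had overlapping ranges over the libraries. Such an overlap does not show that their order changed within a library, which was not examined. The ranges over the 9 libraries overlapped for 33 of 34 neighbouring pairs in complex I, 7 of 8 in complex III, 13 of 18 in complex IV and 11 of 16 in complex V, but for 0 of 3 in complex II. These levels divided the counts by all annotated exon bases of a gene, which include retained introns in some genes. With the median length of the coding transcripts instead, Ndufa6 was the highest in complex I at 328 TPM, Cox4i1 in complex IV at 657 TPM and Atp5b in complex V at 1343 TPM, and Uqcrfs1 was the lowest in complex III at 90.1 TPM, while Sdha, Sdhc, Uqcrh, Ndufc1, Cox8b and Atp5s kept their places.

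**Figure D1:**
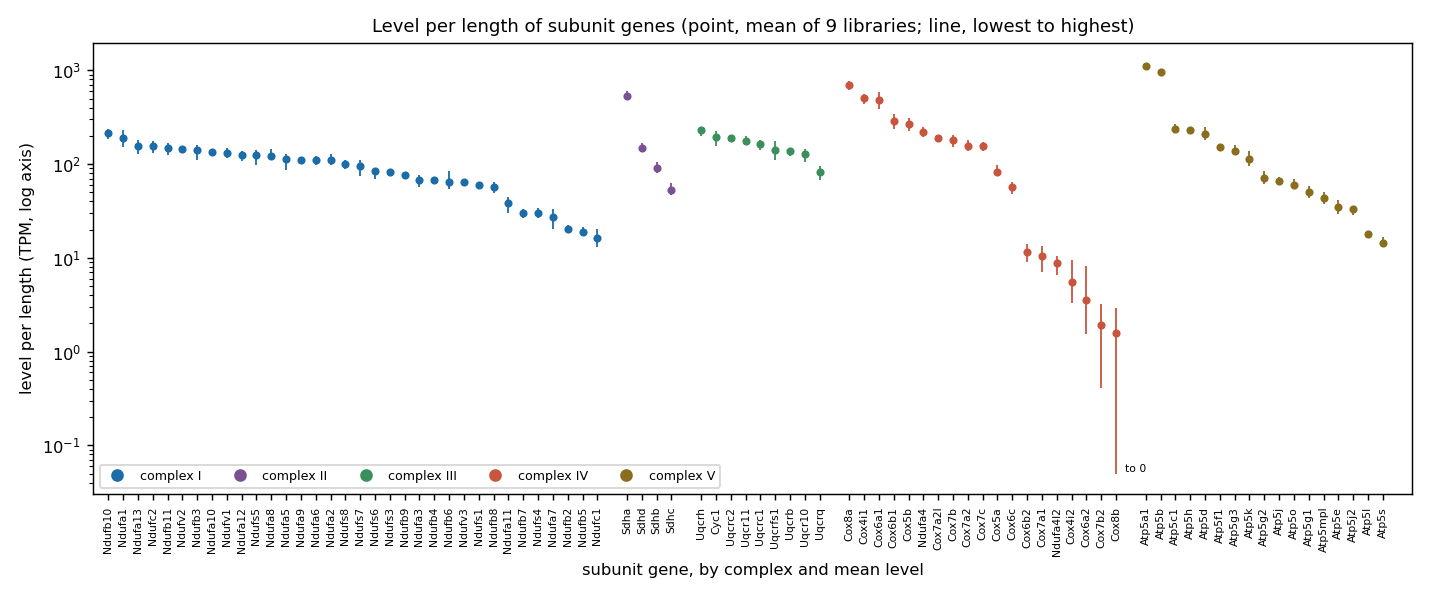
Level of the subunit genes in TPM, all but 1 of which are drawn, on a log axis, by complex; points are means over the 9 libraries and lines run from the lowest to the highest library, with the line of Cox8b running to 0, off the log axis, because a library held 0 counts. The members of complex IV spanned the widest range, from Cox8b at 1.57 TPM to Cox8a at 692 TPM.

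Several complex IV subunits exist as tissue isoforms, and in the cerebellum the widely expressed form was the main one in each pair. As a share of the summed TPM of its pair, Cox4i1 held 98.8%, 99.2% and 98.7% in the order 15Q, 84Q, 84Q+IGF-1, against Cox4i2, the isoform known from lung and low oxygen. Cox8a held 99.7%, 99.7% and 99.9%, against Cox8b, a form of heart and skeletal muscle that was at 0 counts in 84Q+IGF-1 replicate 3 and at no more than 0.257 CPM in any library. Cox7a1, the muscle form of its subunit, held 5.74%, 6.88% and 6.08% beside Cox7a2. The testis forms Cox6b2 and Cox7b2 held 4.72%, 3.79% and 3.31% and 1.19%, 1.17% and 0.935% of their pairs, and Ndufa4l2, a relative of Ndufa4 induced by low oxygen, held 4.23%, 4.21% and 3.42%. The 3 genes Atp5g1, Atp5g2 and Atp5g3, which encode the same mature c-ring protein, held 18.9%, 27.0% and 54.1% of their sum in 15Q, and 19.5%, 27.9% and 52.6% in 84Q. Cox8b and Cox7b2 were removed by the filter on low counts, so 82 of the 84 members were tested.

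The comparison of 84Q with 15Q sets mice with the expanded allele against mice with the short one, which differ in line and source as well. Each of the 5 complexes had at least 1 subunit that rose in 84Q, and 21 of 82 members in all rose at an adjusted p under 0.1 (quasi-likelihood test of edgeR, Benjamini-Hochberg adjustment across the 19353 genes in the fit), and 0 fell. The median log2 fold change over the members was 0.22, that is 1.17-fold, beside -0.0019 over all genes tested, and it was above 0 in 78 of the 82. No member passed the adjusted p together with a fold change of at least 1.5, the call that 2.14% of all genes met by edgeR, although 51 members (and 3764 of the 19353 genes, 19.4%) had an unadjusted p under 0.05, and DESeq2 called 0 members too. The 21 that rose made up 25.6% of the tested members, whereas 1.54% of all genes rose by the same test. In bulk tissue a larger share of mitochondria-rich cells and more RNA per cell cannot be told apart.

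The separation of the groups can also be read from the libraries alone. All 84Q libraries lay above all 15Q libraries for 51 members, or 62.2%, and for 11.9% of all genes. Relative to each gene's mean over the 9 libraries, the median member lay at -0.14, -0.13 and -0.11 on the log2 scale in the 15Q libraries, at 0.07, -0.02 and 0.19 in the 84Q libraries and at 0.12, -0.05 and 0.05 in the 84Q+IGF-1 libraries. The 15Q libraries were close together, and the libraries with the expanded allele were spread over a wider range, with replicate 2 of each of the other groups nearest to 15Q. 84Q replicate 3, the shallowest library, was the highest of the 9 for 48 members, and 15Q replicate 1 was the lowest for 31. The same median over all genes tested was between -0.0016 and 0.0089 in every library.

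**Figure D2:**
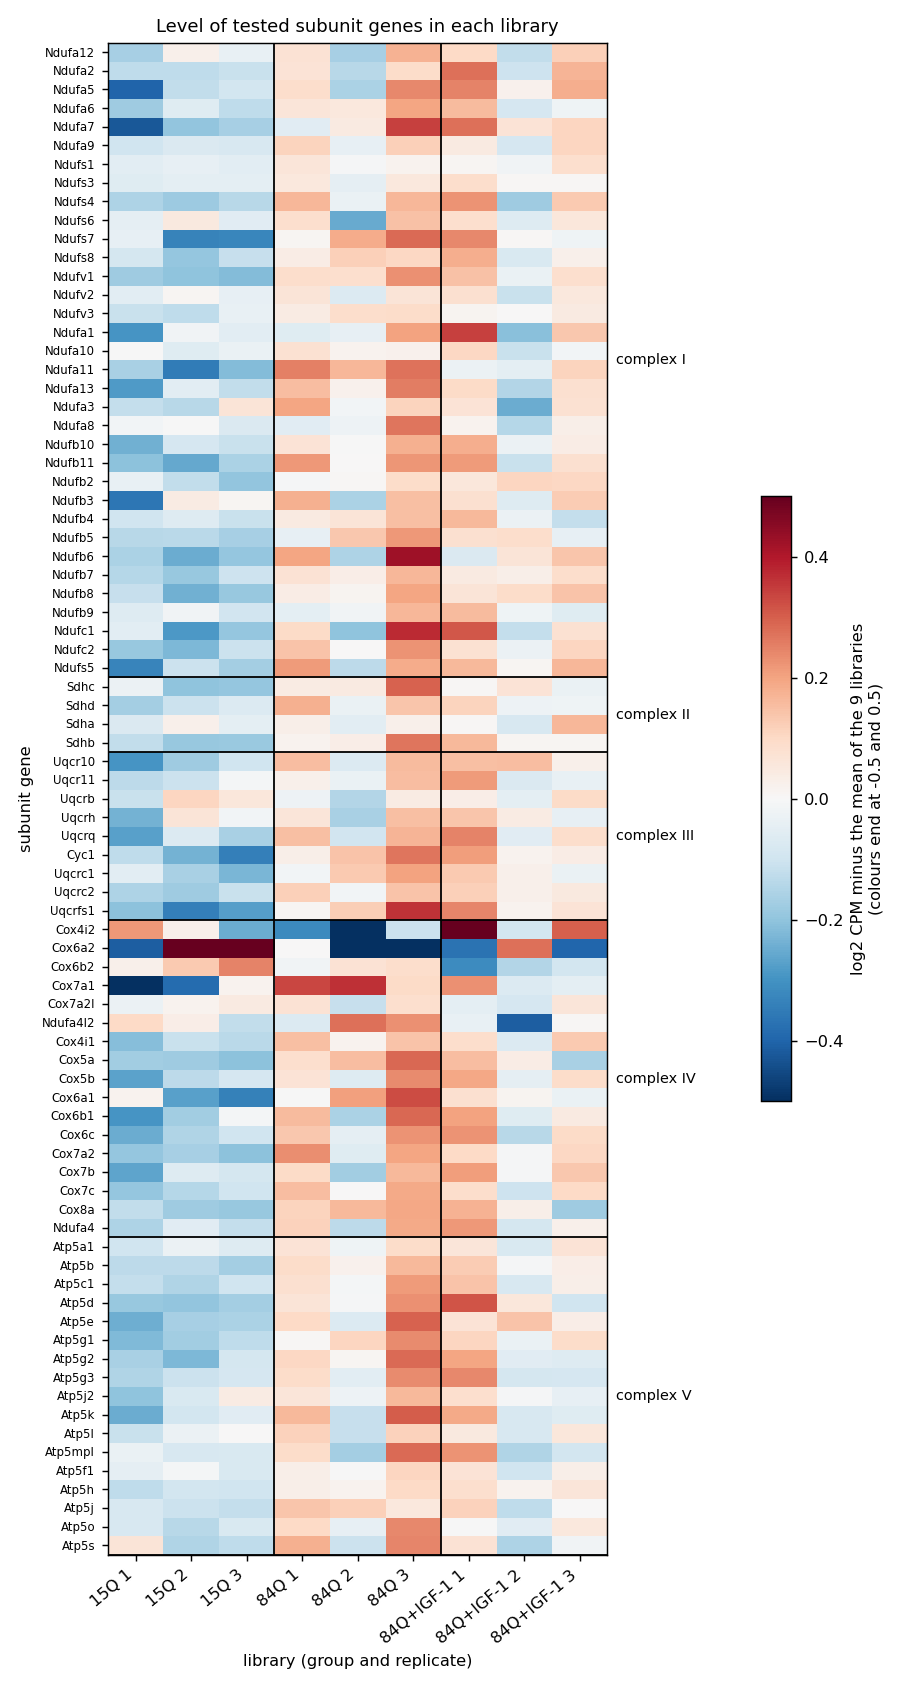
Log2 deviation of the tested subunit genes, all but 1 of which are drawn, from the mean of each gene over the 9 libraries, as colour, with genes in rows by complex and libraries in columns by group. The 15Q columns lie mostly below the mean, and 84Q replicate 3 is the highest column for 48 of the 82 tested genes.

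In complex I, 8 of 35 subunits rose in 84Q, and all 35 had a fold change above 1. Ndufv1, the subunit that binds NADH and hands its electrons to the flavin, had the smallest p of all members. It was at 76.5, 75.3 and 74.3 CPM in the 15Q libraries and at 91.8, 91.6 and 101 CPM in the 84Q libraries. The groups did not overlap, and the rise was 0.33 ± 0.06 (SE, n = 3 per group) on the log2 scale, with an edgeR adjusted p of 0.0161. Ndufs7, a core subunit next to the site where ubiquinone is reduced, rose by 0.39 (adjusted p = 0.0815 by edgeR). Ndufs8, an iron-sulfur subunit, had a log2 fold change of 0.22 with an edgeR adjusted p of 0.162, and Ndufs1, Ndufs3 and Ndufv2 had values from 0.05 to 0.07.

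Ndufa11, an accessory subunit of the membrane arm that lies where complex I meets complex III in supercomplexes, showed the largest difference among the members that rose. Its levels were 9.22, 8.09 and 8.88 CPM in 15Q, and 12.3, 11.6 and 12.5 CPM in 84Q. The 84Q libraries stood well apart from 15Q, with a log2 fold change of 0.48 ± 0.10 (SE, n = 3 per group) and an edgeR adjusted p of 0.0324. The other accessory subunits that rose, Ndufb7, Ndufb8, Ndufb11 and Ndufc2, all belong to the membrane arm and had log2 fold changes from 0.24 to 0.35. By place, 5 of 19 membrane arm subunits rose, with a median of 0.24, and 3 of 16 matrix arm subunits, with a median of 0.19, and the difference between the arms was not tested.

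Ndufa1, an accessory subunit encoded on the X chromosome, is one of the members that the study measured by quantitative PCR, and its primers are shown for that reason. They match the 419-base transcript Ndufa1-201, whose coding part runs from base 74 to base 286, and give a product of 102 bases from base 242 to base 343, across 2 exons (chrX:37187664-37189897, minus strand, GRCm38).
Ndufa1 forward primer: gtcaatcgctactatgtgtccaa
Ndufa1 reverse primer: caggaacagatgaccatagctg
In the libraries Ndufa1 was at 16.0, 19.4 and 18.9 CPM in 15Q, at 18.8, 19.1 and 22.6 CPM in 84Q, and at 24.9, 17.0 and 21.6 CPM in 84Q+IGF-1. All 3 groups overlapped, and the log2 fold change was 0.15 ± 0.13 (SE, n = 3 per group) in 84Q and 0.22 ± 0.13 in 84Q+IGF-1 against 15Q, with edgeR adjusted p values of 0.585 and 0.415.

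Complex II is the only complex with all of its subunits encoded in the nucleus, and 1 of its 4 rose. Sdhb, the iron-sulfur subunit, was at 46.7, 44.6 and 44.8 CPM in 15Q and at 51.6, 52.1 and 61.2 CPM in 84Q. The groups did not overlap (log2 fold change 0.28 ± 0.07, SE, n = 3 per group, edgeR adjusted p = 0.0850). Sdhc and Sdhd, which anchor the complex in the membrane and bind ubiquinone, were of like size at 0.27 and 0.21 but did not pass (adjusted p = 0.109 and 0.142 by edgeR). Sdha, the flavoprotein that oxidizes succinate, was at 522, 560 and 531 CPM in 15Q and at 561, 530 and 559 CPM in 84Q. These ranges overlapped almost in full, and the log2 fold change was 0.03, with a 95% interval from -0.12 to 0.18. Since Sdha makes up most of the summed counts of complex II, that sum was 1.06-fold higher in 84Q with overlapping libraries.

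In complex III the 4 core and catalytic subunits all rose, and 0 of the 5 accessory subunits did. Uqcrfs1, the Rieske iron-sulfur protein that takes electrons from ubiquinol, was at 41.6, 37.7 and 39.6 CPM in 15Q and at 48.2, 52.1 and 61.5 CPM in 84Q. Cyc1, the cytochrome c1 that passes them to cytochrome c, was at 94.5, 87.6 and 81.5 CPM in 15Q and at 105, 114 and 124 CPM in 84Q. Both were apart from 15Q in every library, with log2 fold changes of 0.44 ± 0.09 and 0.38 ± 0.08 (SE, n = 3 per group) and edgeR adjusted p values of 0.0345 and 0.0313. The core proteins Uqcrc1 and Uqcrc2, which carry no redox group, rose by 0.26 and 0.23 (adjusted p = 0.0881 and 0.0567 by edgeR). The median log2 fold change was 0.32 over these 4 genes and 0.13 over the accessory subunits, among them Uqcrh at 0.07 and Uqcrq at 0.24 (adjusted p = 0.198 by edgeR).

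In complex IV, 6 of the 11 widely expressed subunits rose and 0 of the 6 tested tissue isoforms and relatives did. Cox5a, which lies on the matrix side, was at 38.6, 38.5 and 37.8 CPM in 15Q and at 46.2, 48.5 and 53.2 CPM in 84Q (log2 fold change 0.36 ± 0.08, SE, n = 3 per group, edgeR adjusted p = 0.0510). Cox6a1 rose by 0.37 (adjusted p = 0.0767 by edgeR), but its 15Q libraries, at 85.4, 70.0 and 66.8 CPM, overlapped with 84Q, at 84.2, 97.5 and 106 CPM. It was the sole gene among the 21 whose groups overlapped, and 15Q replicate 1 was the library inside the 84Q range. The other members that rose were Cox8a (0.32, adjusted p = 0.0558 by edgeR), Cox7a2 (0.32, adjusted p = 0.0720), Cox4i1 (0.26, adjusted p = 0.0720) and Cox7c. Of the distinct 100-base stretches in Cox7c transcripts, 16.2% also occur in transcripts of other genes or pseudogenes, so that its count is less certain. Cox6b1, Cox7b and Ndufa4 had log2 fold changes of 0.26, 0.17 and 0.17 and did not pass.

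The tissue isoforms of complex IV had no common direction, with a median log2 fold change of -0.05 in 84Q. Cox6a2, the form of heart and skeletal muscle, was at 0.372, 1.39 and 1.21 CPM in 15Q, at 0.518, 0.264 and 0.285 CPM in 84Q and at 0.386, 0.640 and 0.377 CPM in 84Q+IGF-1. 15Q replicates 2 and 3 were above the other 7 libraries, whereas 15Q replicate 1, from 10 counts, lay among them. The log2 fold change was -1.47 ± 0.48 in 84Q (SE, n = 3 per group), with an edgeR adjusted p of 0.133, and -1.13 ± 0.45 in 84Q+IGF-1, with 0.222. Over the left-out libraries the values ran from -1.90 to -1.19 in 84Q and from -1.46 to -0.84 in 84Q+IGF-1, and Cox6a2 was called lower in both without 15Q replicate 1, at -1.80 and -1.46, or with no filter on low counts. Xist was high in 15Q replicates 2 and 3 too, and with Xist as a covariate the values were -1.04 and -0.61 (adjusted p = 0.191 and 0.425 by edgeR). After thinning to equal depth they were -1.14 and -0.57 (adjusted p = 0.289 and 0.604 by edgeR). Skeletal muscle markers were also higher in 15Q, as given above, and were lower in 15Q replicate 1 (15.1 CPM) than in replicates 2 and 3 (22.1 and 23.5 CPM), and their part in the Cox6a2 values was not tested.

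Cox7a1, the muscle form whose fold change was the highest of all members, was the reverse of Cox6a2 in its levels. It was at 0.929, 1.04 and 1.40 CPM in 15Q and at 1.76, 1.80 and 1.48 CPM in 84Q. The groups did not overlap, but the log2 fold change of 0.56 ± 0.22 (SE, n = 3 per group) had an edgeR adjusted p of 0.195. Cox7a2l, a relative of Cox7a1 and Cox7a2, had a log2 fold change of 0.00 with a 95% interval from -0.13 to 0.14, and Cox4i2, Cox6b2 and Ndufa4l2 had values of -0.36, -0.10 and 0.15. Pericyte and smooth muscle markers, a cell type known for Cox4i2 and Ndufa4l2, summed to between 220 and 247 CPM in 15Q, between 204 and 209 CPM in 84Q and between 181 and 211 CPM in 84Q+IGF-1. Of the 7 tested, 1 was lower in each comparison with 15Q, beside 629 and 509 of all 19353 genes.

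In complex V, 2 of 17 subunits rose, although all 17 had a fold change above 1. Atp5g1, a gene of the rotating c-ring, was at 53.2, 55.0 and 56.8 CPM in 15Q and at 62.3, 66.8 and 73.1 CPM in 84Q (log2 fold change 0.29 ± 0.07, SE, n = 3 per group, edgeR adjusted p = 0.0511). Atp5b was at 924, 925 and 901 CPM in 15Q and at 1079, 1027 and 1134 CPM in 84Q (0.24 ± 0.06, edgeR adjusted p = 0.0706). Neither gene overlapped between the groups. The other c-ring genes, Atp5g2 and Atp5g3, had log2 fold changes of 0.29 and 0.21 and did not pass. Of the distinct 100-base stretches in Atp5g2 transcripts, 34.7% also occur in transcripts of other genes or pseudogenes. Atp5a1, like Ndufa1, was also a quantitative PCR target of the study. In the libraries Atp5a1 was at 820, 860 and 840 CPM in 15Q and at 920, 864 and 936 CPM in 84Q, with a log2 fold change of 0.11 ± 0.06 and an edgeR adjusted p of 0.343. By place, all 84Q libraries were above 15Q for 5 of 5 genes of the head and central stalk, 4 of 4 of the peripheral stalk and 3 of 3 of the c-ring, and for 0 of the 4 other membrane subunits.

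**Figure D3:**
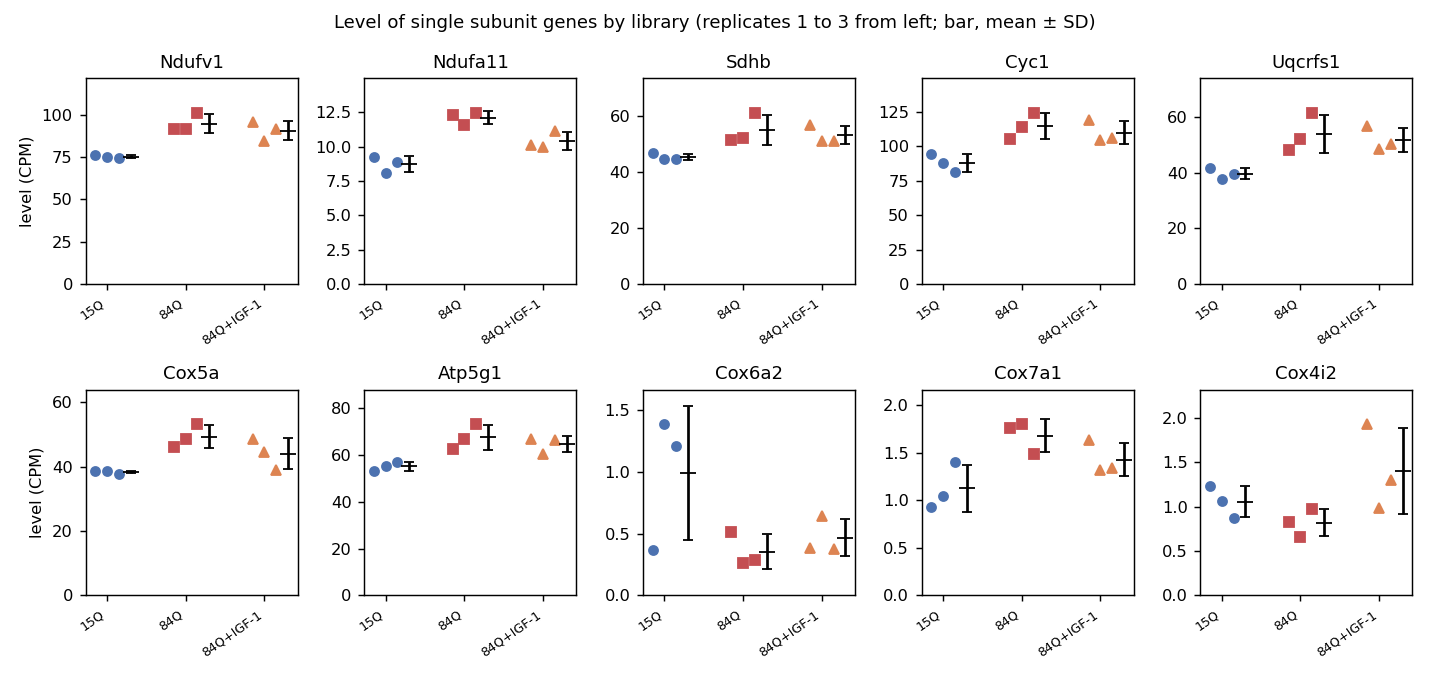
CPM of single subunit genes in each library, by group, for 10 genes; points are replicates 1 to 3 from left to right, the bars give mean ± SD, and each panel has its own axis from 0. In the panels of Ndufv1, Ndufa11, Sdhb, Cyc1, Uqcrfs1, Cox5a, Atp5g1 and Cox7a1 every 84Q point is above every 15Q point, whereas the groups overlap for Cox6a2 and Cox4i2.

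Among the members with the NRF1 letters in their promoter window, 4 of 10 rose in 84Q, with a median log2 fold change of 0.25, and among those without them 13 of 54 rose, with a median of 0.23. These 4 genes were Cox6a1, Ndufa11, Sdhb and Uqcrc1, and in the last 2 the letters lay at or beyond the annotated start. With any of the 4 motifs, 7 of 25 rose (median 0.21), and without any, 10 of 39 (median 0.24). For the ETS letters it was 1 of 5 with them (median 0.13) and 16 of 59 without (0.24), for the YY1 letters 2 of 9 (0.21) and 15 of 55 (0.24), and for the receptor letters 0 of 2 (0.21) and 17 of 62 (0.24). The differences were not tested.

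Summed over all 84 members, the level was 5940 ± 67.1 CPM in 15Q (SD, n = 3), 6771 ± 365 CPM in 84Q and 6610 ± 341 CPM in 84Q+IGF-1. The 84Q libraries were above the 15Q libraries for the sums of complexes I, III, IV and V, with ratios of 1.14, 1.18, 1.19 and 1.14, and so were the 84Q+IGF-1 libraries, with ratios of 1.12, 1.16, 1.14 and 1.10. In TPM the ratio of 84Q to 15Q was 1.12 over all members.

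**Figure D4:**
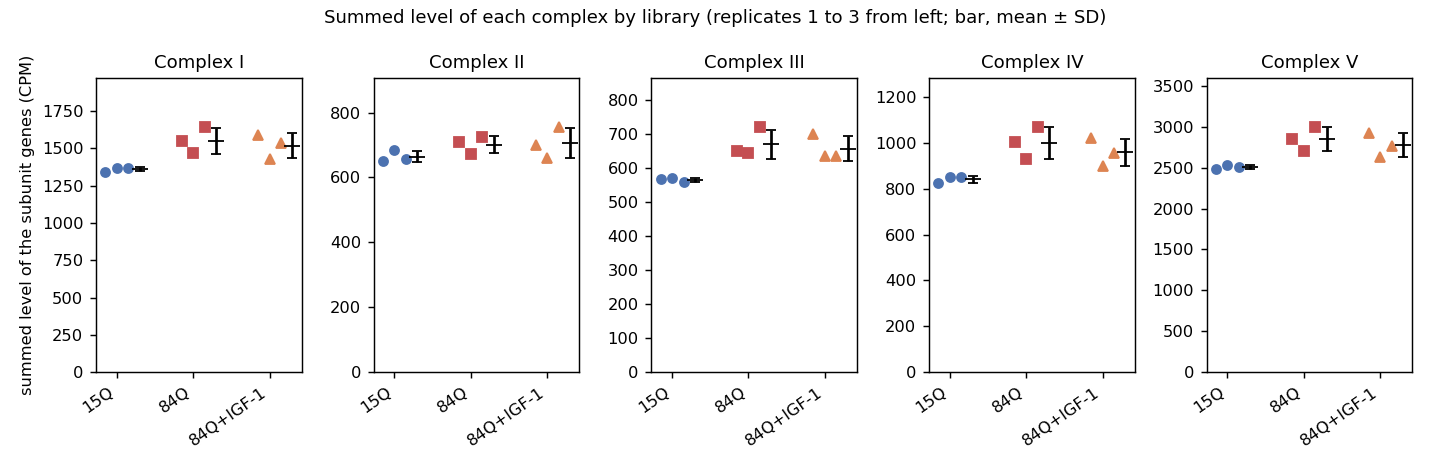
Summed CPM of the subunit genes of each complex in every library, by group, with mean ± SD as bars. For complexes I, III, IV and V all 84Q and 84Q+IGF-1 points are above the 15Q points, and for complex II the groups overlap.

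How many members passed depended on the libraries, while the size of the difference depended on them less. Without replicate 2 of 15Q, replicate 3 of 15Q or replicate 3 of 84Q, the count of 21 became 1, 1 and 3. With Xist as a covariate it became 7, and with choroid plexus markers as a covariate 11. The share of all genes that rose fell too, from 1.54% to 0.10%, 0.19%, 0.26%, 0.57% and 0.87% in the same order. The median log2 fold change stayed between 0.17 and 0.27 when any 1 library was left out. It was 0.21 with Xist and 0.20 with choroid plexus markers as a covariate. Without the 3 libraries high in these markers the median was 0.27. That fit leaves 15Q replicate 2 alone in its group, so its count is not given. With all libraries thinned to equal depth 16 members rose, and 1.15% of all genes did.

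**Figure D5:**
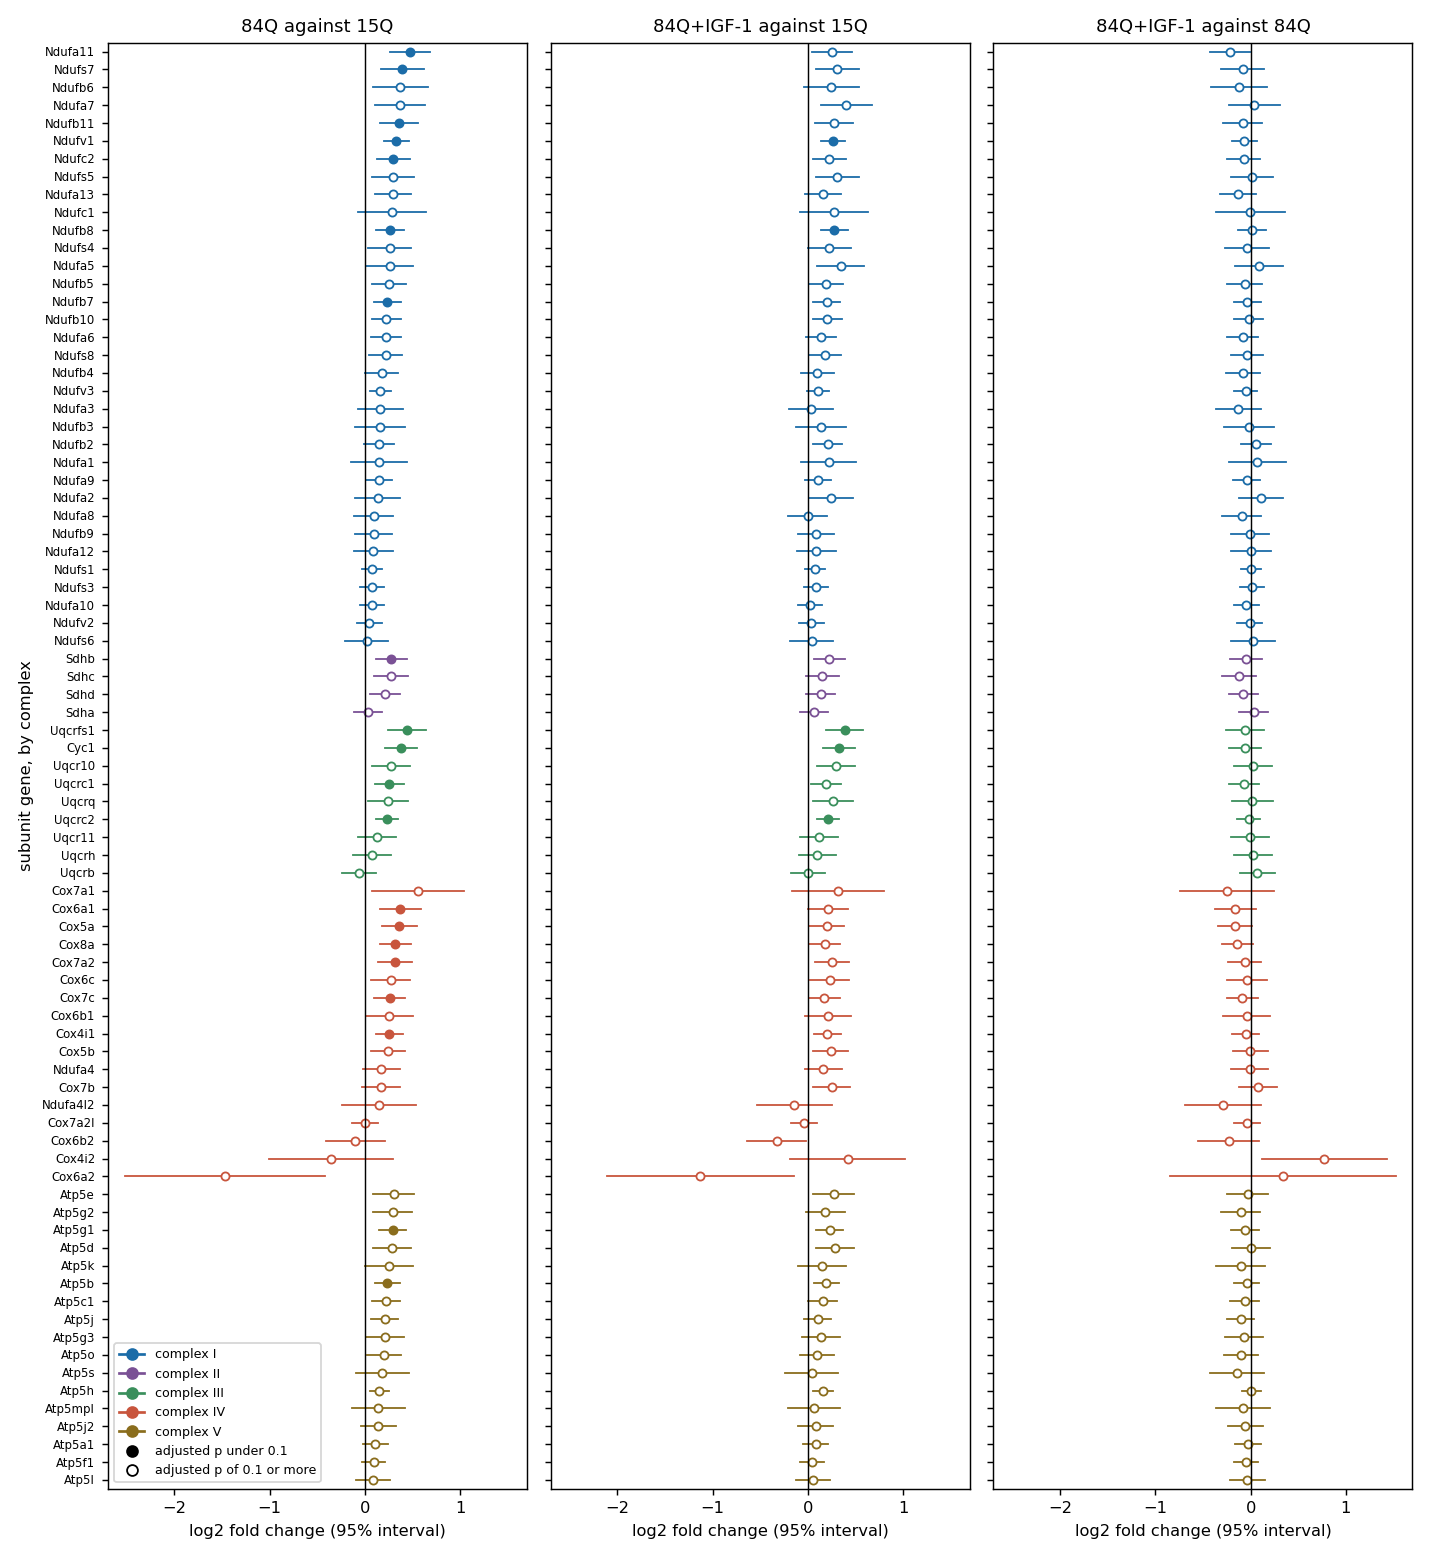
Log2 fold change of the tested subunit genes, all but 1 of which are drawn, in the 3 comparisons, by complex, with lines for the 95% interval and filled points for genes at an adjusted p under 0.1. In both comparisons with 15Q most points lie above 0, with 20 and 5 filled among those drawn, and in 84Q+IGF-1 against 84Q they lie around 0 with none filled.

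The comparison of 84Q+IGF-1 with 15Q asks where the treated mice stood relative to the mice of the 15Q line. It shares the 15Q libraries with the comparison above, so the values are set side by side and are not independent. Here 5 of 82 members rose and 0 fell, with a median log2 fold change of 0.18 beside -0.0051 over all genes, and 77 were above 0. By edgeR no member met the call with a fold change of at least 1.5, which 2.25% of all genes did, while 40 (and 3429 of the 19353 genes, 17.7%) had an unadjusted p under 0.05, and DESeq2 called 0. The 5 made up 6.10% of the tested members, and 1.04% of all genes rose. All 84Q+IGF-1 libraries were above 15Q for 41 members, or 50.0%, against 11.7% of all genes, and below 15Q for Cox6b2 alone.

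The members that rose were Ndufv1 and Ndufb8 of complex I and Cyc1, Uqcrfs1 and Uqcrc2 of complex III, and all 5 had also risen in 84Q. In 84Q+IGF-1, Ndufv1 was at 95.7, 84.6 and 91.7 CPM (log2 fold change 0.27 ± 0.06 against 15Q, SE, n = 3 per group, edgeR adjusted p = 0.0443). Uqcrfs1 was at 56.8, 48.5 and 50.2 CPM (0.39 ± 0.09, edgeR adjusted p = 0.0560) and Cyc1 at 119, 105 and 106 CPM (0.32 ± 0.08, edgeR adjusted p = 0.0582). Each of the 3 lay above all 15Q libraries. Uqcrc2 rose by 0.21 (adjusted p = 0.0779 by edgeR) and Ndufb8 by 0.28 (adjusted p = 0.0573 by edgeR). The smallest p in complexes II, IV and V belonged to Sdhb (0.23, edgeR adjusted p = 0.149), Cox7a2 (0.25, edgeR adjusted p = 0.141) and Atp5h of the peripheral stalk (0.16, edgeR adjusted p = 0.109), and none of them passed.

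By complex, the median log2 fold change in 84Q+IGF-1 against 15Q was 0.20 in complex I, 0.15 in complex II, 0.21 in complex III, 0.20 in complex IV and 0.14 in complex V, and in 84Q against 15Q it was 0.22, 0.24, 0.24, 0.26 and 0.21. The count of 5 was 0 without replicate 2 of 15Q, replicate 3 of 15Q or replicate 1 of 84Q+IGF-1, and 0 with choroid plexus markers as a covariate. In these fits 0.13%, 0.19%, 0.22% and 0.19% of all genes rose, in place of 1.04%. The count was 8, 10 and 12 without replicate 2 of 84Q+IGF-1, replicate 3 of 84Q and replicate 2 of 84Q, where 0.79%, 1.69% and 1.43% of all genes rose. Without the 3 libraries high in choroid plexus markers, which leaves 15Q replicate 2 alone in its group, the median was 0.18. The median stayed between 0.13 and 0.22 when any 1 library was left out.

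The comparison of 84Q+IGF-1 with 84Q asks what the treatment changed in mice with the expanded allele. By edgeR 0 of 82 members passed the adjusted p in either direction, 2 had an unadjusted p under 0.05, and DESeq2 passed 0 as well. Of all genes, 0.0% were called with the fold change and 0.0% rose at the adjusted p alone, although 905 of the 19353 had an unadjusted p under 0.05. The median log2 fold change was -0.04 (all genes -0.0033), and 21 of 82 members were above 0, a count that was 8 of 82 without replicate 2 of 84Q, 11 of 83 without replicate 1 of 84Q+IGF-1, 38 of 82 without replicate 2 of 84Q+IGF-1 and 43 of 83 without replicate 3 of 84Q. Of the 21 that had risen in 84Q against 15Q, 20 had a lower fitted level in 84Q+IGF-1 than in 84Q (13 without replicate 3 of 84Q), but that direction shares the 84Q libraries with the rise itself. Not finding a difference does not show that the groups were alike. For 78 of the 82 members the 95% interval of the fold change lay within 1.5-fold in either direction, and the 4 with wider intervals, Cox4i2, Cox6a2, Cox7a1 and Ndufa4l2, are tissue isoforms or relatives with low levels.

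Libraries of the 2 groups were apart for 3 tested members, or 3.66%, and for 8.46% of all genes. Cox4i2, at 0.828, 0.659 and 0.969 CPM in 84Q and 1.93, 0.979 and 1.30 CPM in 84Q+IGF-1, was higher in the treated mice in every library, though only barely in replicate 2 (log2 fold change 0.78 ± 0.30, SE, n = 3 per group, edgeR adjusted p = 0.969). Ndufa11 was at 10.1, 9.98 and 11.2 CPM in 84Q+IGF-1 and thus lay between 15Q and 84Q in every library, with a log2 fold change of -0.22 ± 0.10 against 84Q (edgeR adjusted p = 0.969). Cox6b2 was at 3.17, 3.38 and 3.42 CPM in 84Q and at 2.57, 2.90 and 3.02 CPM in 84Q+IGF-1 (-0.23 ± 0.15, edgeR adjusted p = 0.969). The next largest differences among the 21 were those of Cox5a, Cox6a1 and Cox8a, at -0.16, -0.16 and -0.14.

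The genes that build and serve the complexes showed smaller differences between 84Q and 15Q than the subunits, as counts and medians. Of 15 assembly factors of complex I, 1 rose, Acad9 (log2 fold change 0.24 ± 0.06, SE, n = 3 per group, edgeR adjusted p = 0.0821), with a median of 0.10. Of the assembly factors of complexes II, III, IV and V, 0 of 4, 0 of 6, 0 of 18 and 0 of 4 tested passed, with medians of 0.07, 0.01, 0.10 and 0.08, and Cox11, which delivers copper to complex IV, had the smallest p among them (0.33, edgeR adjusted p = 0.130). Of 15 genes for electron carriers and other donors to the chain, 0 passed, with a median of 0.09, among them Coq6 of ubiquinone synthesis (0.31, edgeR adjusted p = 0.140). At an unadjusted p under 0.05 were 2, 0, 0, 5 and 1 assembly factors of complexes I to V and 2 carrier genes, beside 19.4% of all genes, and DESeq2 was not used for these lists. All 84Q libraries lay above 15Q for 5, 0, 0, 8 and 1 assembly factors of complexes I to V and for 4 carrier genes. This was 33.3% of the tested factors of complex I and 44.4% of those of complex IV, beside 11.9% of all genes.

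Of 14 transcriptional regulators of subunit genes, 0 passed by edgeR and 4 had an unadjusted p under 0.05, beside 19.4% of all genes, and the median log2 fold change was 0.02. Ppargc1b, a coactivator of mitochondrial genes, was at 39.0, 43.7 and 58.1 CPM in 15Q and at 35.8, 36.6 and 28.8 CPM in 84Q, lower in every library though without passing the test (-0.48 ± 0.15, SE, n = 3 per group, edgeR adjusted p = 0.116). The nuclear receptor Esrra had a value of 0.16 (edgeR adjusted p = 0.172) and Gabpa, the ETS factor of respiratory genes, one of -0.16 (edgeR adjusted p = 0.203). No gene of these lists passed in either comparison with 84Q+IGF-1.

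The levels of other cell types beside these results were as follows. Between 84Q and 15Q, the summed markers of granule cells, Purkinje cells, astrocytes, oligodendrocytes, microglia and heart muscle overlapped between the groups. Single markers were past the threshold for 2 of these types: 1 of 6 Purkinje cell markers, Pcp2, was higher in 84Q (0.34, edgeR adjusted p = 0.0936), at 149 to 177 CPM against 121 to 135 CPM in 15Q, and 1 of 5 microglial markers, Csf1r, was too (0.37, edgeR adjusted p = 0.0271), at 54.1 to 66.0 CPM against 46.1 to 49.3 CPM. Oligodendrocyte markers summed to between 3750 and 4047 CPM in 15Q, 3645 and 4658 CPM in 84Q and 2773 and 3687 CPM in 84Q+IGF-1, and microglial markers to between 112 and 132, 129 and 164, and 120 and 126 CPM. Brown fat markers summed to between 6.88 and 7.94 CPM in 15Q and to between 5.41 and 6.86 CPM in the other groups, but the markers did not share a direction. Of the 3 tested, 1, Fabp4, was lower in each comparison with 15Q. Cidea, the largest part of the sum, had means of 5.58, 5.36 and 5.87 CPM in 15Q, 84Q and 84Q+IGF-1, and Ucp1 had means of 0.229, 0.315 and 0.387 CPM. Adipoq and Plin1, with lower means in both groups with the expanded allele, were not tested. The part of these cell types in the levels of the subunit genes was not tested, and neither was that of the choroid plexus, beyond the fits with its markers as a covariate and without the libraries high in them.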

How the data were processed

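RNA of the cerebellum of 9 mice was sequenced in paired ends with a protocol that keeps the strand. According to the submitters' processing notes, reads passed through bcl2fastq 2.20, Trimmomatic 0.36, HISAT2 2.2.0 and featureCounts. The values used are the authors' unnormalized read counts per gene, as deposited. The annotation, the strand setting and the handling of reads with several matches are not given in the sources used here. The membership rule and all gene lists were chosen with earlier results of these data known.

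Genes were kept with filterByExpr, libraries were scaled by TMM, and all 9 libraries were fitted together in edgeR 4.0.16 (R 4.3.3, limma 3.58.1) with the quasi-likelihood test, two-sided, with p values adjusted by Benjamini-Hochberg across all 19353 genes that passed. The thresholds were an adjusted p under 0.1, and the same with a fold change of at least 1.5 for a gene termed called. Standard errors came from the F statistic. CPM used TMM-scaled totals, log2 deviations a prior count of 2, and TPM the union of exons in GENCODE vM21, or the median coding transcript length. The floor was 3 counts, or 0.0515 to 0.172 CPM by library. Intervals cover the spread between samples.

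Named with values were, per complex and comparison, the member with the smallest p, per complex the highest and lowest by TPM, the tissue isoform and c-ring genes, the core subunits, Ndufa1 and Atp5a1 (1 member is not reported here by name, and enters counts and sums only), and up to 3 genes per related list. Ndufb7, Ndufb8, Ndufb11, Ndufc2, Cox7c, Ndufa6 and the gene symbols of marker lists were named after their values were seen. Alternatives were DESeq2 1.42.0, other scaling, filters and thresholds, the compared groups alone, a replicate block, Xist as a covariate and each library left out, and, added after the data were seen, length and GC offsets, thinning to equal depth, and choroid plexus markers as a covariate or as a reason to leave libraries out (over 500 CPM). No replicate pair held identical counts. The edgeR code was tested on simulated data.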

Additional observations from a re-analysis of the deposited data

How the results depend on the processing

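The median log2 fold change of the members kept its sign in 84Q and in 84Q+IGF-1 against 15Q under every alternative, and counts of members past a threshold did not keep their size. In 84Q against 15Q the 21 members at an adjusted p under 0.1 became 35 with DESeq2, 37 (36 of them higher) with no filter on low counts, 7 with Xist as a covariate, 11 with choroid plexus markers as a covariate and 4 at an adjusted p under 0.05. The share of all genes that rose was 1.64%, 2.18%, 0.57%, 0.87% and 0.40% in the same order. Over the left-out libraries the count ranged from 1 (replicate 2 or 3 of 15Q, with 0.10% and 0.19% of all genes) to 29 (replicate 1 of 84Q+IGF-1, with 2.30%). Without replicate 3 of 84Q it was 3, with 0.26% of all genes. In 84Q+IGF-1 against 15Q the 5 became 20, 25 (24 of them higher), 3, 0 and 1 under the same settings, with 1.24%, 1.54%, 0.49%, 0.19% and 0.29% of all genes. The count was 20 with length and GC offsets and 11 with the 2 groups alone, with 2.24% and 1.58% of all genes. Over the left-out libraries it ranged from 0 (replicate 2 or 3 of 15Q or replicate 1 of 84Q+IGF-1, with 0.13%, 0.19% and 0.22% of all genes) to 12 (replicate 2 of 84Q, with 1.43%). Other scalings and thinning gave 16 to 23 and 4 to 7. In 84Q+IGF-1 against 84Q the count was 0 throughout. Called members were 0 in all fits but 2: with no filter and without 15Q replicate 1, 1 member, Cox6a2, was called lower in each comparison with 15Q (range over left-out libraries 0 to 1). The median ranged from 0.17 to 0.27, from 0.13 to 0.22 and from -0.09 to 0.0017 over the left-out libraries in the 3 comparisons.

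The replicate block gave 6 and 1 members in place of 21 and 5, and 0.39% and 0.25% of all genes rose with it. Deviations of same-numbered libraries correlated above 0.1 in 0 of 9 pairs. No pairing by number was seen, although this check cannot exclude one, because other differences between libraries also enter the deviations.

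Of the 16 named members past the threshold in 84Q against 15Q, none changed sign in 336 values, and 118 of these values were no longer past it. Of 42 named members tested, 2 changed sign in at least 1 alternative in 84Q against 15Q, 5 in 84Q+IGF-1 against 15Q and 22 in 84Q+IGF-1 against 84Q, of which 12 did so without replicate 3 of 84Q. With choroid plexus markers as a covariate, Atp5s, Ndufv2 and Uqcrh were at -0.035, -0.020 and -0.048 in 84Q+IGF-1 and Cox7a2l at -0.017 in 84Q against 15Q. Uqcrh was at -0.0087 in 84Q+IGF-1 against 15Q without the libraries high in these markers. Cox7a1 was at -0.012 in 84Q+IGF-1 against 15Q after thinning, in place of 0.31 and of 0.21 to 0.53 over the left-out libraries. Over the left-out libraries Cox7a2l ranged from -0.027 to 0.070 and Uqcrh from -0.0011 to 0.163 in 84Q against 15Q, Atp5s from -0.0096 to 0.114 and Sdha from -0.0040 to 0.122 in 84Q+IGF-1 against 15Q, and Ndufa1 from -0.060 to 0.205 and Atp5a1 from -0.059 to 0.016 in 84Q+IGF-1 against 84Q, where Atp5a1 was at 0.013 with the offsets. The cause was not tested. Cox8b and Cox7b2, removed by the filter on low counts, did not pass in the alternatives that tested them, such as DESeq2 and the fit with no filter.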

Other observations

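Genes of the complexes that the symbol rule does not take were also in the counts. Ndufab1, the acyl carrier protein that is a subunit of complex I, had a log2 fold change of 0.16 in 84Q and 0.09 in 84Q+IGF-1 against 15Q, with edgeR adjusted p values of 0.237 and 0.528. Usmg5, a small membrane subunit of the ATP synthase, had values of 0.12 and 0.13 (edgeR adjusted p = 0.590 and 0.574), and Atpif1, which inhibits the ATP synthase, had values of 0.04 and 0.00 (edgeR adjusted p = 0.893 and 0.994). None of the 3 passed the test. Ndufab1 lay at 39.9, 39.7 and 42.5 CPM in 15Q and at 43.7, 44.8 and 47.6 CPM in 84Q, so that its groups did not overlap, while those of Usmg5 and Atpif1 did.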
